A study of Mus musculus with 6 samples.

Results

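This is an account of 33 genes of protein folding and stress in the endoplasmic reticulum (ER), out of 56940 genes counted, in mouse lens capsules after cataract surgery. The genes were chosen by name and role: 15 chaperones and foldases, 2 subunits of the protein-conducting channel, 4 genes of ER-associated degradation, 4 stress sensors and the factors they control, and 8 genes of the ATF4 branch. Earlier results of these data were known when they were chosen. Shares of called genes among them, set below against all tested genes, are therefore not independent of the data. All 33 were found by Ensembl identifier, and 32 had enough counts to be tested. The libraries came from lens capsule with attached lens epithelial cells (LEC) of wildtype C57BL/6 mice, 3 from capsules 72 h after surgery and 3 from capsules at 0 h, with 5 capsules pooled in each. Surgery removed the fiber cell mass and left the capsule and its epithelium in the eye. Each mouse had its eyes operated on 72 h apart, so capsules of both times could come from the same animals. The sample descriptions also hold RUNX_Cre_N, which no label explains, and the age of the mice was not stated.

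Secreted and membrane proteins are folded in the ER by chaperones such as BiP, by lectins that bind sugar chains, and by enzymes that form disulfide bonds. When unfolded proteins build up, the sensors IRE1, PERK and ATF6 start the unfolded protein response. It raises folding capacity, sends faulty proteins to degradation and slows translation. ATF4 is a transcription factor of this response. Lens epithelial cells secrete the capsule, a thick basement membrane, and after surgery they secrete wound matrix. ATF4 also controls genes for amino acid synthesis and transport in many other conditions, so its target genes do not report on the ER alone.

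At 72 h most folding genes had higher RNA levels, by 1.71-fold (Dnajb11) to 2.79-fold (P4hb) among the 10 chaperones and foldases called in all alternatives, while the serine synthesis genes Phgdh and Psat1 were 3.8-fold and 3.98-fold lower. Of the 32 tested members, 21 rose and 3 fell by the quasi-likelihood test of edgeR, adjusted over all genes by Benjamini-Hochberg, and 8 were not called. Among all 15407 tested genes, 21.0% rose and 17.5% fell (38.5% in either direction). At least 2-fold calls were made for 9 members that rose (13.5% of all tested genes) and 3 that fell (10.4%). The median log2 change of the tested members was 0.79, against −0.02 over all tested genes. The 72 h libraries lay above all 0 h libraries for 24 tested members and below them for 3 (26.5% and 26.9% of all tested genes). In bulk capsules, fewer cells of a type and less RNA per cell cannot be told apart.

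The 72 h libraries held 8453450 to 8945397 counts in genes and the 0 h libraries 11338820 to 12432688, and the members held 0.481% to 0.626% of them at 72 h and 0.346% to 0.378% at 0 h. The makeup of the libraries differed, with crystallin genes at 1.45% to 2.89% of counts at 72 h and 15.9% to 16.9% at 0 h. Genes encoded in mitochondria held 16.6% to 25.3% of counts at 72 h, with the highest share in replicate 3, and 3.75% to 3.91% at 0 h. All 10 listed markers of lens epithelium were detected at both times, and 8 of them fell. Of 15 tested macrophage and monocyte markers, 11 rose, and the list of 16 summed to 216 to 402 CPM (counts scaled to a common TMM-adjusted library size) at 72 h and 35.2 to 51.7 CPM at 0 h. For 4 tested neutrophil markers of 12 listed, 3 rose, with sums of 26.6 to 167 CPM at 72 h and 0.931 to 2.45 CPM at 0 h. The upper value was mostly Ltf, with 135 CPM in 72 h replicate 3, and the other 11 markers summed to 22.9 to 49.3 CPM at 72 h and at most 1.58 CPM at 0 h. Of the 12 markers 8 had 0 counts in all 0 h libraries, and 5 of these had 0 counts at 72 h too. All 6 tested antigen presenting cell markers of 10 listed rose, with sums of 75.9 to 155 CPM at 72 h and 20.1 to 28.5 CPM at 0 h. Of 6 tested fibroblast and endothelial markers 3 rose and 1 fell, and the list of 10 summed to 294 to 714 CPM at 72 h, against 244 to 340 CPM at 0 h. Most of the 72 h sum was Col1a2, which rose (585, 568 and 236 CPM at 72 h). Most of the 0 h sum was Pdgfra, which fell (218, 264 and 200 CPM at 0 h). Dcn and Lum, the others that rose, averaged 18.6 and 3.28 CPM at 72 h. Plasma and B cell markers, whose cells are rich in ER chaperones, summed to 1.74 to 3.35 CPM at 72 h and 17.1 to 20.5 CPM at 0 h. Nearly all of the 0 h sum was Igkc, and the other 9 markers summed to at most 2.08 CPM at 72 h and 1.26 CPM at 0 h, with Mzb1, Tnfrsf17, Cd79a, Cd79b and Ms4a1 at 0 counts in all libraries. T and NK cell markers summed to at most 4.77 CPM in any library. Surface epithelium markers summed to 5380 CPM in 72 h replicate 3, against 7.41 and 114 CPM in 72 h replicates 1 and 2 and 25.5 to 56.5 CPM at 0 h. Of the tested markers, 11 of 11 fell for lens fibers and 9 of 10 for photoreceptors. Of 9 tested iris, ciliary body and pigment cell markers 4 fell and 5 were not called. The part of these cells in the results below was not tested.

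A promoter sequence found in some of the folding genes is shown first. The members were chosen by name as genes of ER folding and stress. The element belongs to the same response, so its share among them is not independent of that choice. The ER stress element, a site bound by ATF6 and XBP1 together with NF-Y, was searched as CCAAT and CCACG with 9 bases of any kind between them, on both strands of the 300 bases from 250 before to 50 after the RefSeq start site (build GRCm38.p6). A promoter was found for 29 members, and not for Hyou1, Manf, Sec61a1 or Atf6. The element was present in 8 of the 29 members (27.6%) and in 37 of all 26994 genes of the table (0.137%). It was found in 7 of 13 chaperone and foldase genes and in Syvn1, and in no sensor or ATF4 branch promoter. The matches are printed here in the orientation of the element with 6 bases on either side, and capitals mark CCAAT and CCACG:
Hspa5 (chr2:34772019-34772049): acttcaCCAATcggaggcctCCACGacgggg
Hsp90b1, upstream (chr10:86705632-86705662): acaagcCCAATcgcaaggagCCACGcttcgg
Hsp90b1, downstream (chr10:86705527-86705557): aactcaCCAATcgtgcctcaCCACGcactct
Calr (chr8:84847069-84847099): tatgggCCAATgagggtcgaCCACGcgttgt
Canx (chr11:50325794-50325824): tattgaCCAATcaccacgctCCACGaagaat
Dnajc3 (chr14:118937821-118937851): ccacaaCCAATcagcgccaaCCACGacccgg
Creld2 (chr15:88819514-88819544): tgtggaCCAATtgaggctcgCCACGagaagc
Pdia6 (chr12:17266485-17266515): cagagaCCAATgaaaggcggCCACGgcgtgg
Syvn1 (chr19:6046526-6046556): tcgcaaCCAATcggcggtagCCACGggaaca

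All 8 members with the element rose at 72 h, against 21.0% of all tested genes. Only Hspa5, Hsp90b1, Calr and Pdia6 did so in all 15 alternatives. The count was 4 without 0 h replicate 2 or without 0 h replicate 3, and 5 (these 4 and Syvn1) without 72 h replicate 1, without 0 h replicate 1 or with library size alone. Of the 21 members with a promoter but no such match, 10 rose, 3 fell, 7 were not called and 1 was not tested. Among them the chaperones and foldases Dnajb11, Sdf2l1, P4hb, Pdia3 and Pdia4 rose, and Dnajb9 was not called. Of 29 genes outside the members with the same element, 10 were tested. Of these Hnrnpa3 and Zfp57 rose and Spats2l fell, against 21.0% and 17.5% of all tested genes. The part of the element in these changes was not tested. A match is a description of letters and not a bound site. A second site of the response, TGACGTGG, was searched on both strands and was found in none of the 29 members and in 0.715% of all genes. Its letters CGTGG are the reverse complement of CCACG, so a match to one can overlap a match to the other.

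The ATF4 element, searched as TGATGNAA on both strands, was found in 4 of the 29 members (13.8%) and in 4.51% of all genes. These were 3 of the 8 ATF4 branch genes and the degradation gene Herpud1. The branch was chosen for its link to ATF4, so this share is not independent of that choice either. The matches are shown with 6 bases on either side and the element in capitals, as the matches to this factor among the members. Herpud1 fell at 72 h, Trib3 was not called, Chac1 was too low to be tested and was called with no filter (edgeR adjusted p = 0.0067), and Asns was near the threshold (edgeR adjusted p = 0.051) and called in 8 of 15 alternatives:
Asns (chr6:7693219-7693238): gccacaTGATGAAActtccc
Trib3 (chr2:152344033-152344052): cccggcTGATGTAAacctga
Chac1 (chr2:119351043-119351062): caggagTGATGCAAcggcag
Herpud1 (chr8:94386311-94386330): gcgggcTGATGCAAcccgcc

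**Figure D1:**
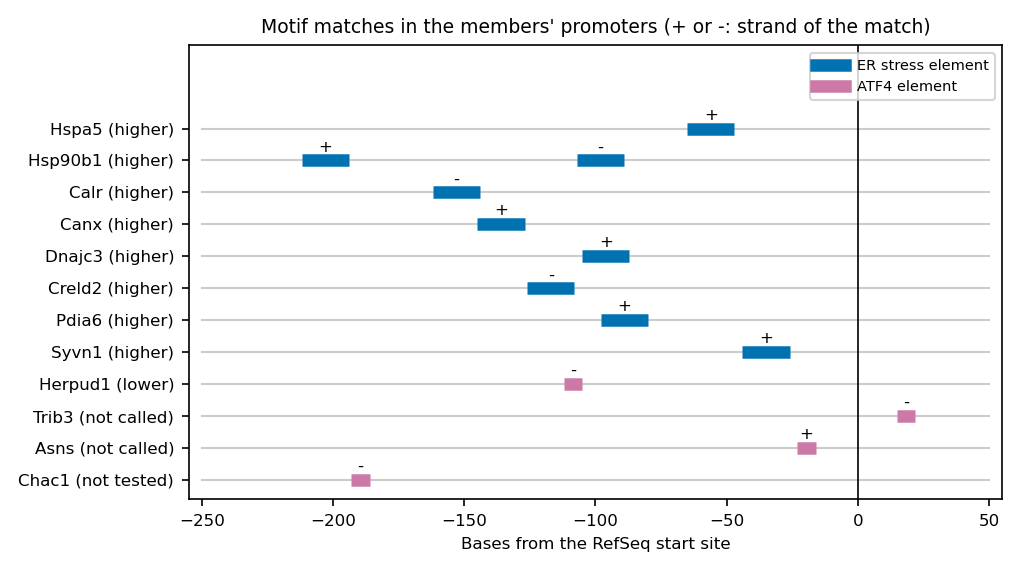
Position of each motif match in the promoters of 12 members, in bases from the RefSeq start site, with the call of the gene at 72 h over 0 h in brackets and the strand of the match above it. The ER stress elements lie between 212 and 26 bases before the start.

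The promoter of Calr is printed whole, as the member with the ER stress element and the smallest p. It is the minus strand of chr8:84846882-84847181, and the capitals mark the element, which lies here on the opposite strand and so reads CGTGG and ATTGG.
Calr: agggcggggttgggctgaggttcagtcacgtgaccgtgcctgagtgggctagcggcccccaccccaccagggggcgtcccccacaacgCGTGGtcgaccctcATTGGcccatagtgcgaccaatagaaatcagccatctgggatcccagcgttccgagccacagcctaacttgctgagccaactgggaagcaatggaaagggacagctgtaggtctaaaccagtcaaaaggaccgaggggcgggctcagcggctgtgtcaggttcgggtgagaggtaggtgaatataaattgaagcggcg

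The promoters of Atf4 (plus strand of chr15:80254934-80255233) and Phgdh (minus strand of chr3:98339920-98340219) are shown as those of the ATF4 branch genes with the smallest p in each direction. Neither held any of the 3 motifs, so they have no capitals.
Atf4: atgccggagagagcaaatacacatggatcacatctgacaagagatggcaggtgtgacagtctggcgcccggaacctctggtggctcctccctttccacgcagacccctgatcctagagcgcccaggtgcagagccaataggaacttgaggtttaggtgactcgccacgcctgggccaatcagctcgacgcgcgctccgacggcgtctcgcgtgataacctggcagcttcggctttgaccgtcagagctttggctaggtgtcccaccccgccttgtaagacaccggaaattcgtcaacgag
Phgdh: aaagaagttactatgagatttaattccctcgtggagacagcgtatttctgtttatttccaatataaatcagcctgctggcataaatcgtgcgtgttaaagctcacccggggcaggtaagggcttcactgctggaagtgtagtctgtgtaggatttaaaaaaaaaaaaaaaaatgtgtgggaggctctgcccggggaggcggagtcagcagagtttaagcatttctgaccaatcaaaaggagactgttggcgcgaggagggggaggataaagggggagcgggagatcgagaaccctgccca

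Of 15 chaperones and foldases, 14 rose and 0 fell, against 21.0% and 17.5% of all tested genes. Their median log2 change was 0.95. Their summed level was 4720 ± 502 CPM at 72 h and 2450 ± 99.2 CPM at 0 h (SD, n = 3 each), a ratio of 1.92. Hspa5 encodes BiP, the Hsp70 chaperone of the ER and the one that holds the stress sensors inactive. Its level was 564, 547 and 460 CPM in the 72 h libraries, against 244, 252 and 259 CPM in the 0 h libraries. The lowest 72 h library was well above the highest 0 h library, and the log2 change was 1.06 ± 0.10 (SE; edgeR adjusted p = 4.2e-05). Hsp90b1, which encodes GRP94, the Hsp90 of the ER and a chaperone of integrins, had 713, 741 and 627 CPM at 72 h and 366, 342 and 362 CPM at 0 h. It rose by 0.96 ± 0.10 on the log2 scale (edgeR adjusted p = 5.4e-05), with no overlap of the groups.

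Calreticulin (Calr) and calnexin (Canx) are the lectin chaperones that hold glycoproteins in the folding cycle, calreticulin soluble and calnexin in the membrane. Calr had 872, 881 and 747 CPM at 72 h and 329, 287 and 318 CPM at 0 h, a log2 change of 1.42 ± 0.11 (edgeR adjusted p = 7.1e-06). Canx had 747, 743 and 527 CPM at 72 h and 488, 480 and 506 CPM at 0 h, so that 72 h replicate 3 was close to the 0 h libraries. Its log2 change was 0.45 ± 0.13 (edgeR adjusted p = 0.024), and the 95% interval of 0.15 to 0.75 lay below that of Calr (1.18 to 1.66). The call of Canx was lost without 72 h replicate 1 or 2 or any one 0 h library (edgeR adjusted p = 0.072 to 0.1) and with upper quartile normalization or library size alone (0.062 and 0.079), in a range of 2.5e-05 to 0.1 over all alternatives.

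The 4 protein disulfide isomerases among the members, which form and rearrange disulfide bonds in secreted proteins, all rose, against 21.0% of all tested genes. Outside the members, other ER chaperones and foldases rose for 14 of 34 and fell for 5. P4hb, which is also the beta subunit of the prolyl hydroxylase that modifies collagen, had 451, 501 and 477 CPM at 72 h and 177, 160 and 174 CPM at 0 h. Its log2 change of 1.48 ± 0.10 had the smallest p of all members (edgeR adjusted p = 3.1e-06). Pdia3, the isomerase that works with calnexin and calreticulin on glycoproteins, rose by 0.81 ± 0.10 on the log2 scale, and Pdia4 by 0.97 ± 0.13. Pdia6, which also dampens IRE1 signalling, had 2041, 2475 and 1401 counts at 72 h and 1714, 1408 and 1542 counts at 0 h, or 231 ± 57.5 CPM at 72 h, against 130 ± 16.1 CPM at 0 h (SD, n = 3 each). Among these 4 genes it varied most between 72 h libraries, and 72 h replicate 3 was its lowest (log2 change 0.83 ± 0.18, edgeR adjusted p = 0.0051).

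The partners of BiP among the members rose, except Dnajb9. Outside the members, the ER J-domain gene Dnajb14 fell, as described below. Hyou1, the large Hsp70-like protein that exchanges nucleotide on BiP, rose by 0.95 ± 0.15 on the log2 scale, and Dnajb11, a J-domain co-chaperone, by 0.77 ± 0.14. Manf, a secreted ER stress protein that binds BiP, rose by 1.19 ± 0.13 on the log2 scale (83.3, 82.3 and 73.5 CPM at 72 h, against 34.2, 32.3 and 38.0 CPM at 0 h). Dnajb9, the J-domain protein that recruits BiP to IRE1 and to degradation substrates, did not follow. It had 24.2, 16.4 and 16.9 CPM at 72 h and 20.7, 18.6 and 23.4 CPM at 0 h, with overlapping groups and a log2 change of −0.13 (95% interval −0.62 to 0.37; edgeR adjusted p = 0.69).

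Together with Canx, Dnajc3, Sdf2l1 and Creld2 were the weakest calls of the group. Dnajc3, which encodes the J-domain protein P58IPK, a BiP co-chaperone that also restrains PERK, rose by 0.30 ± 0.11 on the log2 scale (edgeR adjusted p = 0.045). Creld2, which encodes a secreted ER stress protein, rose by 0.63 ± 0.19 (edgeR adjusted p = 0.025). Sdf2l1, a partner of Dnajb11 in BiP complexes, had 13.1, 4.62 and 5.38 CPM at 72 h and 3.11, 1.78 and 3.23 CPM at 0 h, so that 72 h replicate 1 stood far above the other 72 h libraries. Its log2 change was 1.5 ± 0.51 (edgeR adjusted p = 0.042) and 0.87 without that library (adjusted p = 0.21). The call of Sdf2l1 was also lost without any one 0 h library (edgeR adjusted p = 0.093 to 0.15, with 0.013 to 0.21 over all alternatives). Upper quartile normalization, library size alone, limma voom and the replicate block lost it too (edgeR or limma adjusted p = 0.051 to 0.06). The call of Creld2 was lost on leaving out 72 h replicate 1 or any single 0 h library (0.067 to 0.11, with 0.004 to 0.11 over all alternatives). Library size alone also lost it (edgeR adjusted p = 0.05). The call of Dnajc3 was lost on leaving out any library but 72 h replicate 3 (0.051 to 0.19, with 0.028 to 0.19 over all alternatives). It was also lost with upper quartile normalization, library size alone, no filter or the replicate block (edgeR adjusted p = 0.082 to 0.14).

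**Figure D2:**
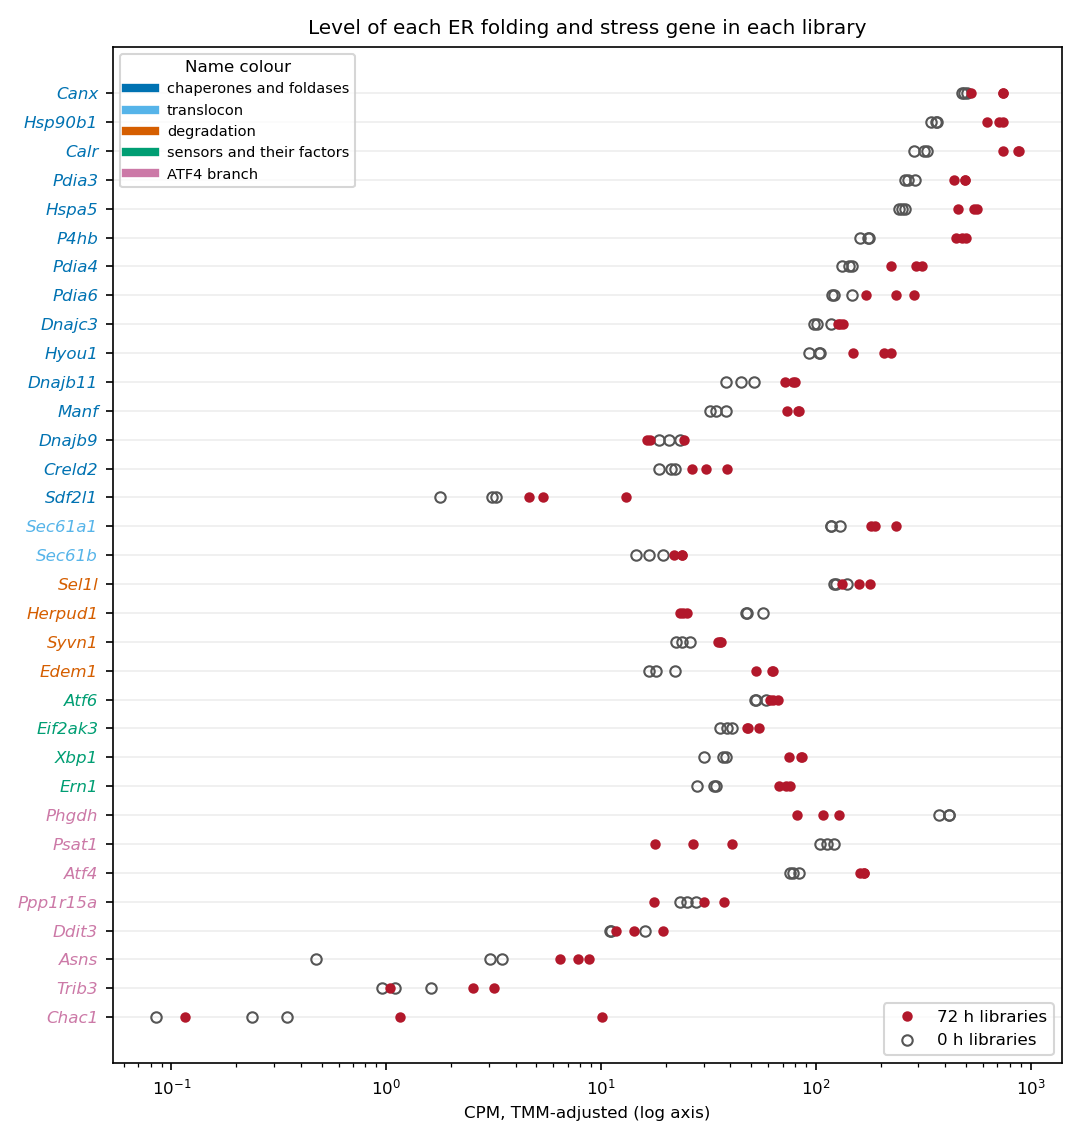
CPM of each of the 33 genes in each library on a log axis, with filled points for the 3 libraries at 72 h and open points for the 3 at 0 h. The chaperones and foldases lie to the right at 72 h except Dnajb9, while Phgdh, Psat1 and Herpud1 lie to the left.

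Per kilobase of exon, which allows levels of different genes to be compared, Calr was the most abundant member at 72 h, at 289 CPM per kb. It was followed by Hsp90b1 (172), P4hb (166), Pdia3 (152) and Canx (143), all in CPM per kb at 72 h. At 0 h the order was led by Phgdh, a cytosolic enzyme, at 162 CPM per kb, ahead of Calr (108), Canx (105), Hsp90b1 (88.5) and Pdia3 (86.7). Phgdh stood at 42.6 CPM per kb at 72 h. At 72 h neither Hsp90b1 and P4hb (SD 14.7 and 8.79 CPM per kb), nor P4hb and Pdia3 (Pdia3 SD 10.4), nor Pdia3 and Canx (Canx SD 26.9) differed beyond their spread (n = 3). The same held at 0 h for Calr and Canx (SD 7.51 and 2.78 CPM per kb, n = 3) and for Hsp90b1 and Pdia3 (SD 3.26 and 4.83).

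The channel through which new proteins enter the ER is formed by Sec61 subunits. Sec61a1, the pore subunit, had 1625, 2047 and 1470 counts at 72 h and 1364, 1394 and 1640 counts at 0 h, or 201 ± 30.6 CPM at 72 h, against 122 ± 6.56 CPM at 0 h (SD, n = 3 each). Its CPM did not overlap between the groups, and it rose by 0.73 ± 0.12 on the log2 scale (edgeR adjusted p = 0.0012). Sec61b, a small subunit, was not called, with 23.8, 23.9 and 21.8 CPM at 72 h, against 16.8, 19.4 and 14.5 CPM at 0 h (log2 change 0.46, 95% interval 0.02 to 0.9; edgeR adjusted p = 0.095), although its groups did not overlap.

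Genes of ER-associated degradation moved apart, with 2 of 4 higher and 1 lower, against 21.0% and 17.5% of all tested genes. Edem1, a lectin that extracts misfolded glycoproteins from the folding cycle, had 63.2, 52.9 and 62.2 CPM at 72 h and 18.1, 16.7 and 22.2 CPM at 0 h. Its log2 change of 1.65 ± 0.16 (edgeR adjusted p = 4.3e-05) was the largest rise among called members. Herpud1, a membrane protein that organises the degradation complex and is itself an unfolded protein response target, had 25.1, 23.2 and 24.1 CPM at 72 h and 56.8, 48.0 and 47.4 CPM at 0 h. All its 72 h libraries were lower than any 0 h library, with a log2 change of −1.07 ± 0.15 (edgeR adjusted p = 0.00033).

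Syvn1 encodes Hrd1, the ubiquitin ligase of the same complex, and Sel1l its adaptor. Syvn1 rose by 0.57 ± 0.15 on the log2 scale (edgeR adjusted p = 0.014), a call lost without 0 h replicate 2 (0.076) or 0 h replicate 3 (0.063), in a range of 0.0049 to 0.076 over all alternatives; without either library 1 of the 4 genes rose. Sel1l had 132, 158 and 178 CPM at 72 h and 121, 124 and 139 CPM at 0 h, with overlapping groups (log2 change 0.28, 95% interval 0 to 0.57; edgeR adjusted p = 0.11), and was called without 72 h replicate 1 (0.38, adjusted p = 0.035; 0.035 to 0.31 over all alternatives), where 3 of the 4 rose.

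Among the sensors and the factors they control, 3 of 4 rose and none fell, against 21.0% and 17.5% of all tested genes. Ern1, which encodes IRE1, the kinase and nuclease that splices Xbp1 mRNA, had 67.5, 76.0 and 72.5 CPM at 72 h and 34.2, 28.1 and 33.5 CPM at 0 h (log2 change 1.17 ± 0.14, edgeR adjusted p = 0.00011). Xbp1, the transcription factor made active by that splicing, had 85.5, 86.1 and 74.6 CPM at 72 h and 37.0, 30.0 and 38.0 CPM at 0 h (1.23 ± 0.14, edgeR adjusted p = 0.00011). Ern1 was 2.25-fold and Xbp1 2.34-fold higher, and the groups did not overlap for either. Counts per gene do not separate spliced from unspliced Xbp1 mRNA, nor do they show the activity of any sensor protein.

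The other sensors changed less. Eif2ak3, which encodes PERK, the kinase that phosphorylates eIF2 alpha, rose by 0.38 ± 0.13 on the log2 scale (edgeR adjusted p = 0.045). That call was lost on leaving out any library but 72 h replicate 3 (0.055 to 0.18, with 0.027 to 0.18 over all alternatives). It was also lost with upper quartile normalization, library size alone, no filter or the replicate block (edgeR adjusted p = 0.089 to 0.11). Atf6, the sensor that is cleaved to a transcription factor, had 61.2, 66.3 and 63.3 CPM at 72 h and 58.8, 52.8 and 51.8 CPM at 0 h. The groups did not overlap, but the change was not called (log2 change 0.22, 95% interval −0.05 to 0.49; edgeR adjusted p = 0.17).

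**Figure D3:**
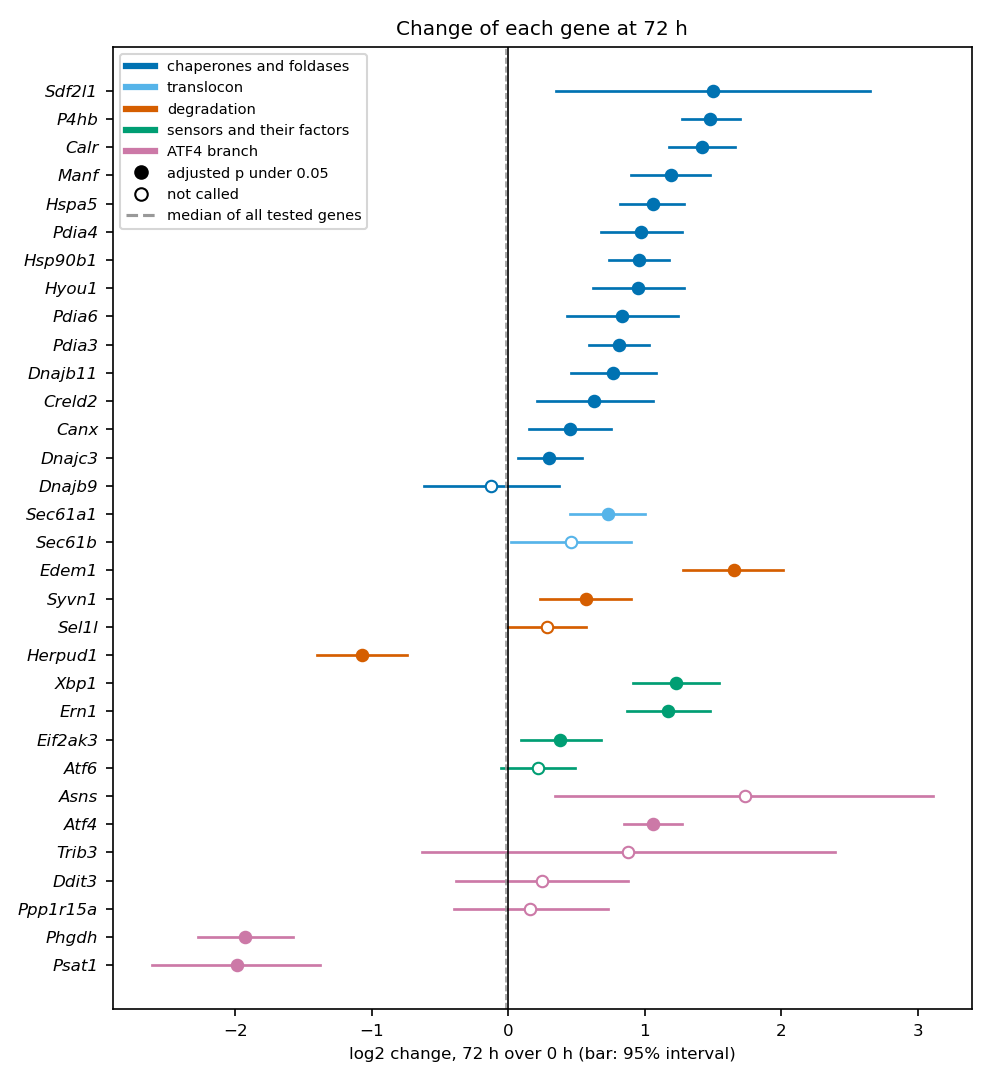
Log2 change of the 32 tested genes, 72 h over 0 h, with 95% intervals from the edgeR fit; filled points passed the adjusted p threshold and open points did not. The chaperones cluster around their median of 0.95, while the ATF4 branch spans −1.99 to 1.73.

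Of the 7 tested members of the ATF4 branch, 1 rose, 2 fell and 4 were not called, while 21.0% of all tested genes rose and 17.5% fell. Atf4 itself, whose translation is favoured when eIF2 alpha is phosphorylated, had 168, 161 and 167 CPM at 72 h and 83.7, 76.0 and 78.2 CPM at 0 h. The libraries of each group lay close together, and the log2 change was 1.06 ± 0.10 (edgeR adjusted p = 2.3e-05). This is the amount of mRNA, and ATF4 protein was not measured.

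The serine synthesis enzymes fell. Phgdh, the first enzyme of serine synthesis from a glycolytic intermediate, had 108, 128 and 81.6 CPM at 72 h and 417, 376 and 415 CPM at 0 h. It was 3.8-fold lower at 72 h, with a log2 change of −1.93 ± 0.16 (edgeR adjusted p = 1.2e-05). Psat1, the aminotransferase of the following step, had 17.9, 40.9 and 26.7 CPM at 72 h and 113, 122 and 105 CPM at 0 h. It was 3.98-fold lower, with a log2 change of −1.99 ± 0.27 (edgeR adjusted p = 0.00062). Its 72 h libraries differed among themselves by more than its 0 h libraries did, yet none came near the 0 h range. These were the largest falls among the members, and they set the summed level of the branch, which was 357 ± 13.4 CPM at 72 h and 638 ± 19.1 CPM at 0 h (SD, n = 3 each). Psph, the last enzyme of the same pathway, was named after its values were seen; it had 6.22 ± 1.18 CPM at 72 h, against 10.2 ± 1.28 CPM at 0 h (log2 change −0.71 ± 0.31, edgeR adjusted p = 0.097).

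Of the stress-induced genes of the branch, Asns, Ddit3, Ppp1r15a and Trib3 were not called, and Chac1 was not tested. Low counts limited Asns, Trib3 and Chac1. Asns, asparagine synthetase, had 8.80, 6.47 and 7.83 CPM at 72 h and 3.03, 3.47 and 0.473 CPM at 0 h, where 0 h replicate 3 held 6 counts. Its groups did not overlap, and its log2 change of 1.73 ± 0.62 missed the threshold (edgeR adjusted p = 0.051). It passed in 8 of 15 alternatives, including without 72 h replicate 3 (0.042), and the change was 1.24 without 0 h replicate 3 (adjusted p = 0.079; 0.013 to 0.12 over all alternatives). Ddit3, which encodes CHOP, a factor linked to cell death under prolonged stress, had 11.7, 14.2 and 19.4 CPM at 72 h and 11.1, 11.0 and 16.0 CPM at 0 h, so the groups overlapped (log2 change 0.25, 95% interval −0.38 to 0.88; edgeR adjusted p = 0.52). Ppp1r15a, or GADD34, which reverses eIF2 alpha phosphorylation, had 30.3, 17.7 and 37.2 CPM at 72 h and 23.2, 25.1 and 27.8 CPM at 0 h. The 72 h libraries fell on both sides of the 0 h libraries (log2 change 0.16, 95% interval −0.4 to 0.73; edgeR adjusted p = 0.65). Without 72 h replicate 3 the estimate was −0.07 (adjusted p = 0.85; 0.12 to 0.86 over all alternatives).

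Trib3, a pseudokinase induced through ATF4 and CHOP, had 9, 22 and 26 counts at 72 h and 11, 19 and 14 counts at 0 h. It did not pass the test (log2 change 0.88, 95% interval −0.63 to 2.39; edgeR adjusted p = 0.34). Chac1, which encodes an enzyme that breaks down glutathione, had 1, 10 and 83 counts at 72 h and 4, 1 and 3 counts at 0 h. It was not tested because too few libraries reached the minimum count, and 72 h replicate 3 held most of its counts. That library also had the highest sum of surface epithelium markers (5380 CPM), and their part in the Chac1 counts was not tested. Chac1 was called with no filter (log2 change 4, edgeR adjusted p = 0.0067) and without 72 h replicate 1 (4.59, adjusted p = 0.011), in a range of 0.0067 to 0.15 over the 5 alternatives that tested it.

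**Figure D4:**
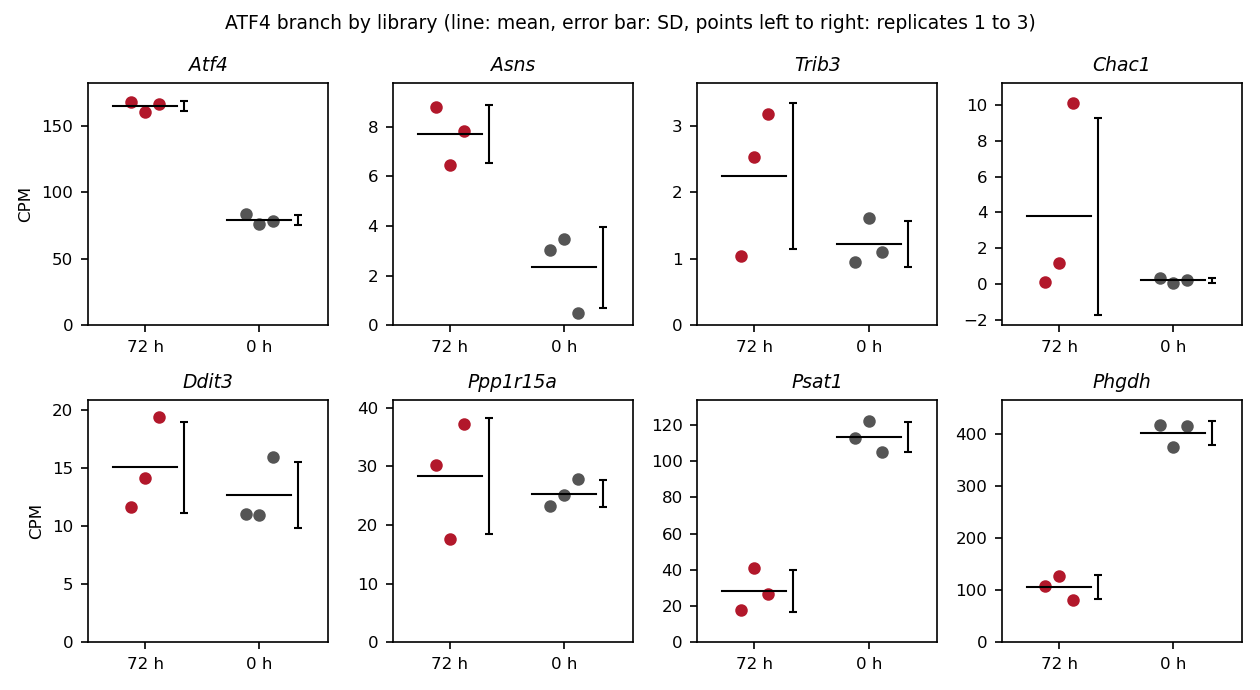
CPM of the 8 ATF4 branch genes by library, 72 h left of 0 h, each panel with its own linear axis, with lines for means and error bars for SD. Atf4 is higher in all 72 h libraries, Psat1 and Phgdh are lower in all of them, and Chac1 is high in 72 h replicate 3 alone.

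Other genes of the pathway were listed by role. Of 146 tested genes in 5 such lists, 51 rose and 14 fell, against 21.0% and 17.5% of all tested genes. Their median log2 change was 0.30. Other ER chaperones and foldases rose for 14 of 34 and fell for 5 (median 0.38). Creld1, a membrane relative of Creld2, had 106 ± 13.7 CPM at 72 h and 29.1 ± 2.1 CPM at 0 h (SD, n = 3 each; log2 change 1.87 ± 0.14, edgeR adjusted p = 6.5e-06). Dnajb14, a J-domain protein of the ER membrane, fell to 40.2 ± 3.66 CPM at 72 h, against 62.6 ± 5.17 CPM at 0 h (−0.64 ± 0.14, edgeR adjusted p = 0.0042). These and the genes named below had the smallest p in each direction within their list.

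Of 27 other genes of ER-associated degradation 4 rose and 2 fell, with a median log2 change of 0, while 21.0% of all tested genes rose and 17.5% fell. Aup1, a lipid droplet protein that recruits a ubiquitin-conjugating enzyme, had 58.1 ± 9.16 CPM at 72 h and 30.4 ± 1.67 CPM at 0 h (log2 change 0.93 ± 0.16, edgeR adjusted p = 0.0011). Svip, a small inhibitor of this degradation, had 3.4 ± 1.78 CPM at 72 h and 15.1 ± 1.69 CPM at 0 h (−2.15 ± 0.39, edgeR adjusted p = 0.0017).

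Other genes of protein entry, signal peptide removal and sugar attachment rose for 12 of 32 and fell for 2 (median 0.33). Of all tested genes 21.0% rose and 17.5% fell. Spcs3, a signal peptidase subunit, had 142, 128 and 87.4 CPM at 72 h and 21.3, 21.9 and 28.9 CPM at 0 h (log2 change 2.3 ± 0.2, edgeR adjusted p = 2e-05). Srp14, part of the signal recognition particle, had 533, 536 and 449 counts at 72 h and 1535, 1300 and 1457 counts at 0 h (−1 ± 0.12, edgeR adjusted p = 0.00013).

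Other sensors and their regulators rose for 6 of 18 and fell for 3 (median 0.31), against 21.0% and 17.5% of all tested genes. Creb3l1, an ER membrane factor cleaved like ATF6 and known for its role in collagen secretion, had 163 ± 17 CPM at 72 h and 42.8 ± 7.21 CPM at 0 h (log2 change 1.93 ± 0.15, edgeR adjusted p = 8.6e-06). Map3k5, the stress kinase ASK1, had 50.1 ± 1.06 CPM at 72 h and 97.8 ± 4.25 CPM at 0 h (−0.96 ± 0.11, edgeR adjusted p = 9.2e-05).

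Other ATF4 target genes rose for 15 of 35 and fell for 2 (median 0.39), against 21.0% and 17.5% of all tested genes. Cebpb, a transcription factor also induced by inflammatory signals, had 99.1 ± 28.9 CPM at 72 h and 21.3 ± 2.21 CPM at 0 h (log2 change 2.22 ± 0.22, edgeR adjusted p = 4.7e-05). Slc38a2, a neutral amino acid transporter, had 205 ± 24.9 CPM at 72 h and 433 ± 8.31 CPM at 0 h (−1.08 ± 0.11, edgeR adjusted p = 4.8e-05).

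By summed level, the channel subunits had 225 ± 31.4 CPM at 72 h, against 139 ± 4.69 CPM at 0 h, while the sensors and their factors had 268 ± 8.86 CPM at 72 h, against 160 ± 11.6 CPM at 0 h (SD, n = 3 each). Degradation genes summed to 275 ± 23.1 CPM at 72 h and 222 ± 10.7 CPM at 0 h. The ATF4 branch alone of the 5 groups had a lower sum at 72 h. This came from Phgdh (mean 106 CPM at 72 h, 403 CPM at 0 h) and Psat1 (28.5 and 114 CPM). The other genes of the branch had higher mean CPM at 72 h, although only Atf4 was called.

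**Figure D5:**
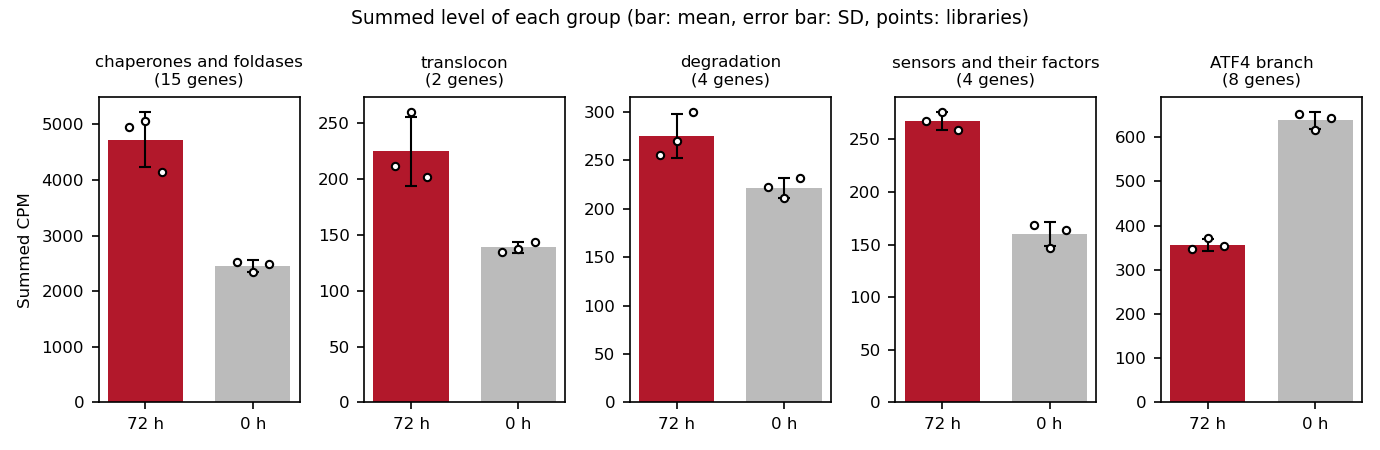
Summed CPM of the genes of each role, 72 h left of 0 h, with bars for means, error bars for SD and points for the 3 libraries of each time. The chaperones average 4720 CPM at 72 h and 2450 CPM at 0 h, while the ATF4 branch averages 357 CPM at 72 h and 638 CPM at 0 h. The lower sum of that branch comes from Phgdh and Psat1.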

How the data were processed

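RNA of pooled lens capsules was made into stranded SMARTer Pico libraries, per the labels' protocols. The authors deposited counts per gene; per the submitters' processing notes, their tools were HISAT2, HTSeq and edgeR and their build GRCm39. The strand setting and annotation release are not given in the sources used here. Reads assigned to no gene were 48% to 51.7% of all counts at 72 h and 41.9% to 45.2% at 0 h and were left out. Without a known strand setting, members whose exons overlap opposite-strand genes are less certain: Hsp90b1, Sec61a1, Eif2ak3 and Manf, and by shorter stretches Syvn1, Pdia6, Pdia3, Ddit3, Dnajb9 and Ppp1r15a.

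From the deposited counts, 3 libraries at 72 h were compared with 3 at 0 h by edgeR 4.0.16 (R 4.3.3) with TMM factors, filterByExpr (minimum count 10) and the robust quasi-likelihood test, at an adjusted p of 0.05 over 15407 genes. CPM, counts scaled to a common library size, used the TMM factors, and exon lengths came from GENCODE on GRCm38. The code was tested on simulated data. The dispersion estimated for each gene was simulated first. The share of unchanged genes among the calls was then above the nominal level and failed the limit set for the check. With dispersions drawn from the trend, simulated after that failure, the share was within the nominal level. The fit itself was not changed. Adjusted p-values, most of all those near the threshold, may therefore be too small. Promoters came from RefSeq (GRCm38.p6) and were matched by symbol, with no coordinates converted. Nothing states that pooled libraries share no animals, so p-values measure the spread between these libraries. Intervals cover 95%.

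All 33 members are named, with the gene of smallest p in each direction from each other list. Members and lists were chosen with earlier results of these data known. Alternatives were RLE, upper quartile and library size normalization, no filter, a minimum count of 50, DESeq2 1.42.0, limma 3.58.1 voom, a replicate block, crystallin and mitochondrial genes left out, and each library left out in turn.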

Additional observations from a re-analysis of the deposited data

How the results depend on the processing

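Over 15 alternatives, 15 of the 21 higher calls and all 3 lower calls among the members held. The members called higher numbered 15 to 22 when 1 library was left out and 16 to 22 otherwise, and 3 were lower throughout. Over all tested genes, 2511 to 3646 were higher when 1 library was left out and 2801 to 3461 otherwise, against 3230. Those lower numbered 1877 to 3265 and 2474 to 3104, against 2700. Without 0 h replicate 2, 15 members were called higher and 2511 of all 16052 tested genes. Chaperones and foldases called higher numbered 10 to 14, against 14, both on leaving out 1 library and otherwise. Leaving out 1 library gave 1 to 3 degradation genes higher and 1 to 2 ATF4 branch genes higher. The ATF4 branch had 2 genes higher, against 1, with RLE factors, the stricter filter, DESeq2, limma voom, the replicate block or without crystallin and mitochondrial genes (Asns), and 3 with no filter (Asns and Chac1). Ppp1r15a ranged from −0.07 (without 72 h replicate 3) to 0.41 (without 72 h replicate 2) on the log2 scale. The cause was not tested. With the replicate block, Asns was called (1.99, edgeR adjusted p = 0.04) and Dnajc3, Sdf2l1 and Eif2ak3 were not. The labels do not say that the numbers pair samples, and same-number deviations correlated at −0.037, 0.059 and −0.012. The median log2 change of all genes was −0.11 with upper quartile normalization and that of the members 0.7. Low counts limit Chac1, Trib3, Asns and Sdf2l1.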
